A study of Rattus norvegicus and Mus musculus with 61 samples.

Results

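The genes described here are 10 members of the TNF and NF-kB signalling pathway: Tnf, Tnfrsf1a, Tnfrsf1b, Nfkb1, Nfkb2, Rela, Relb, Nfkbia, Tnfaip3 and Tnfaip2. They were chosen by name with earlier results of these data known, and every microarray probe set annotated with 1 of these symbols was taken. In mouse, 9 of the 10 genes had a probe set (13 probe sets in all) and 6 had enough signal to be tested, among 6352 genes tested. In rat, 5 of the 10 had a probe set (7 probe sets) and 3 were tested, among 4089 genes. A probe set is a group of short oligonucleotides on the array that together report 1 transcript.

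The samples were disks of parieto-occipital cortex from male animals. Mice (C57BL/6, 20 to 25 g, isoflurane anaesthesia) received a moderate controlled cortical impact, in which a pneumatic piston strikes the exposed brain, at 6 m/s with 1.5 mm deformation. Their cortex was taken 4, 8, 24 or 72 h after injury (3 samples at each time) or after sham surgery (2 samples at each time), or from naive mice without surgery (2 samples); each sample pooled 4 mm disks from 3 mice. Rats (Sprague-Dawley, 400 ± 25 g, sodium pentobarbital anaesthesia) received a fluid percussion injury, a brief pressure pulse of 2.5 atm that deforms the brain, and each sample was a 7 mm disk from 1 rat. Rat cortex was taken 30 min (5 injury, 4 sham), 4 h (3 injury, 4 sham), 8, 24 or 72 h or 21 d (3 injury and 2 sham at each) after surgery, with 3 naive rats. The naive animals' labels name no anaesthetic. The disks from injured animals were centred on the impact and held the contusion.

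TNF is an inflammatory cytokine that microglia, macrophages and other cells release early after brain injury. It binds the receptors TNFR1 (Tnfrsf1a), present on many cell types, and TNFR2 (Tnfrsf1b), which is prominent on immune and endothelial cells. Receptor signalling frees NF-kB dimers, built from subunits such as p50 (from Nfkb1), p52 (from Nfkb2), p65 (Rela) and RelB (Relb), from inhibitors such as IkB-alpha (Nfkbia), and the dimers then switch on genes that include Nfkbia itself and the ubiquitin-editing inhibitor A20 (Tnfaip3). Transcript levels do not measure that release, which acts on proteins.

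All values are array intensities on the linear scale the authors deposited, with a trimmed mean near 800 on every array. Differences are given on the log2 scale ± limma's standard error, and a gene is called, or said to have risen or fallen, at a Benjamini-Hochberg adjusted p below 0.05 over all genes of that species. The neuronal marker Snap25, checked against the labelled tissue, had intensities of 11273 to 26822 in mouse and 446 to 12911 in rat. Mouse arrays had median correlations with each other of at least 0.886. Among rat arrays this median was at least 0.818, except on 4 that stood apart. It was 0.537 and 0.662 on the fourth and the third sham array of 4 h. At 30 min it was 0.755 on the fifth injury array and 0.785 on the third sham array. The pair of sham 4 h arrays also differed in markers: summed neuron markers were 9575 (replicate 4) and 15095 (replicate 3) against 24797 and 27306 in the other sham arrays of that time, and summed endothelial markers were 5367 and 3258 against 780 and 924. Member calls in rat at 4 h are given with and without these arrays. The rat arrays of 24 h, injury and sham alike, had median correlations of 0.821 to 0.843 and median intensities of 399 to 410. Naive rat arrays had median intensities of 278 to 298. Only the 24 h rat titles carry an f after the time, and the labels do not explain it. Levels at 24 h in rat are set beside other times with this limit.

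Tnf, the ligand, was low in mouse cortex and showed its highest values in injured samples at 4 h and 8 h. The 3 injury arrays at 4 h held 59.2, 239 and 133, against 48.4 and 51.0 in the sham arrays. Every injury array was therefore above both sham arrays, but 1 of 22 arrays exceeded the intensity of 194 used as the filter on low signal, so Tnf was not among the genes tested. At 8 h the injury arrays held 189, 45.1 and 49.0 against 44.9 and 36.2 in sham, so 1 pooled sample stood far above the rest. At 24 and 72 h the injury arrays lay between 37.0 and 71.1. Fitted without the filter, the Tnf difference at 4 h was 1.31 ± 0.56 (limma, Benjamini-Hochberg adjusted p = 0.485) and at 8 h 0.89 ± 0.56 (adjusted p = 0.433).

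Both TNF receptors were higher in injured mouse cortex, Tnfrsf1a from 8 h onwards and Tnfrsf1b at 72 h. Tnfrsf1a held 567, 539 and 587 in the injury arrays at 4 h and 642, 828 and 783 at 8 h. The sham arrays of those times held 352 and 289, then 221 and 337. At 24 h it overlapped the 8 h injury values (799, 648 and 587 at 24 h against 271 and 259 in sham). At 72 h Tnfrsf1a reached 1280, 1065 and 1043 against 303 and 292 in sham. Every injury array was above every sham array at each of the 4 times, and the naive arrays (374 and 187) spanned the sham range. The log2 difference was 0.82 ± 0.25 at 4 h (limma, adjusted p = 0.188, not called). Tnfrsf1a then rose by 1.45 ± 0.25 at 8 h (adjusted p = 7.55e-04, limma), by 1.34 ± 0.25 at 24 h (adjusted p = 0.00123, limma) and by 1.92 ± 0.25 at 72 h (adjusted p = 2.05e-05, limma), a 3.78-fold difference at the last time.

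A second Tnfrsf1a probe set, 161194_r_at, did not show this pattern. It held 342, 310 and 410 in the injury arrays at 72 h against 304 and 267 in sham, a difference of 0.30 ± 0.41 (limma, adjusted p = 0.709). Its differences at 4, 8 and 24 h were -0.63, 0.63 and 0.62, none of them called. The Tnfrsf1a rise thus rests on probe set 92793_at, the brighter of the pair on average; with the mean of both probe sets, Tnfrsf1a was still called at 72 h, at 1.11 (adjusted p = 0.00204, limma).

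Tnfrsf1b, the second receptor, held 623, 611 and 515 in the injury arrays at 72 h against 291 and 246 in sham. All 3 injury values exceeded every other mouse array, whose highest value was 430 in an injury array at 4 h. Tnfrsf1b rose by 1.12 ± 0.22 at 72 h (limma, adjusted p = 0.00154), a 2.17-fold difference. At 4, 8 and 24 h its differences were 0.53, 0.45 and 0.48, not called, with overlapping groups at 8 h. In the same samples at 72 h, where 9.86% of all genes rose, 8 of 9 tested microglia and macrophage markers rose. The summed intensity of these markers was 22689 to 30582 in injured against 6236 to 7111 in sham arrays. At 8 h, where Tnfrsf1a was already called, 2 of the 9 were called and the sum was 7554 to 8249 against 6426 to 6819. Of all genes, 4.91% rose and 3.27% fell at 8 h. At 72 h 3 of 7 endothelial markers rose too (sums of 4165 to 5219 against 2099 to 2471), and 2 of 6 astrocyte markers (24506 to 27133 against 14356 to 15734). The part of these cells in the receptor values was not tested; in bulk tissue, more cells of a type and more RNA per cell cannot be told apart.

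**Figure D1:**
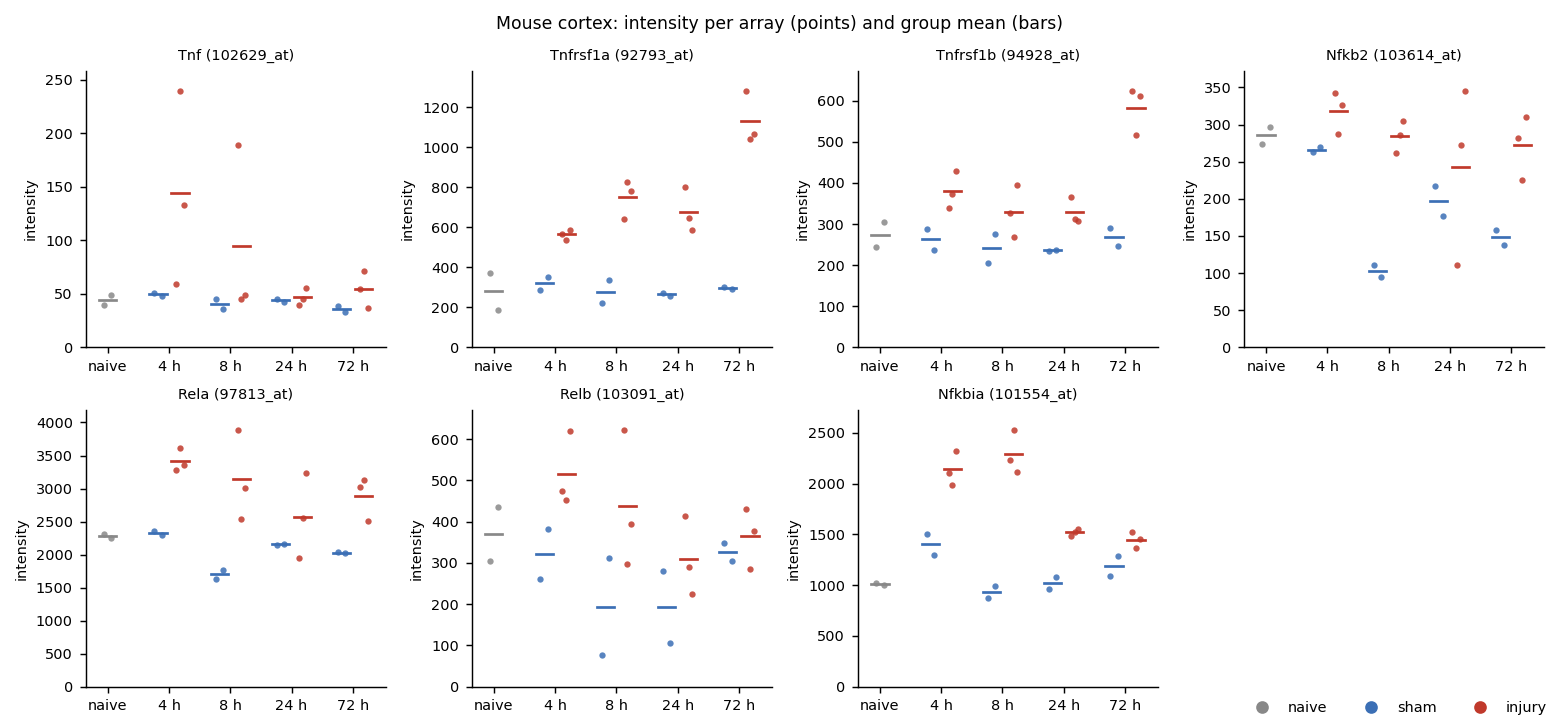
Array intensity (linear scale, y axis from 0) of 7 genes in mouse cortex by time after surgery; each point is 1 array of pooled tissue and each bar a group mean, for naive, sham and injury samples. Tnfrsf1a and Tnfrsf1b are highest in injured cortex at 72 h, Nfkbia at 4 and 8 h, and Nfkb2 is lowest in sham cortex at 8 h.

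Among the NF-kB subunits in mouse, Nfkb2 and Rela rose at 8 h and at no other time. Rela, the p65 subunit, held 3279, 3614 and 3352 in the injury arrays at 4 h against 2296 and 2353 in sham. At 8 h the injury arrays held 3879, 2542 and 3001 against 1637 and 1770. The groups did not overlap at either time, and Rela rose by 0.86 ± 0.18 at 8 h (limma, adjusted p = 0.00436) while the difference of 0.55 ± 0.18 at 4 h was not called (adjusted p = 0.253, limma). At 24 h the Rela groups overlapped (1946, 2548 and 3231 against 2150 and 2160), and at 72 h the difference was 0.50 ± 0.18 (adjusted p = 0.0668, limma).

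Nfkb2, which encodes the p52 precursor p100, held 261, 285 and 305 in the injury arrays at 8 h against 111 and 95.3 in sham. Nfkb2 rose by 1.46 ± 0.34 (limma, adjusted p = 0.00973), and the separation lay in low sham values. Naive arrays held 297 and 274, and sham arrays at 4 h 270 and 263, levels that overlap those of injured cortex at 8 h. Sham cortex at 8 h held the lowest group mean of Nfkb2, Rela and Nfkbia alike. Without sham array 1b or 1c of 8 h the Nfkb2 call ended (adjusted p = 0.0579 and 0.0761), and without 1b the Rela call did (adjusted p = 0.0734), all in limma. Against all uninjured mouse arrays as 1 control group, the Nfkb2 difference at 8 h was 0.60 (adjusted p = 0.255, limma), whereas Rela stayed called at 0.57 (adjusted p = 0.00809, limma). With the same-numbered sham arrays averaged, neither was called (adjusted p = 0.122 for Nfkb2 and 0.0887 for Rela, limma). Nfkb2 differences were 0.25, 0.16 and 0.87 at 4, 24 and 72 h, none called.

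Relb, the partner of p52 in the alternative pathway, was called at no time. Its injury arrays at 4 h held 475, 451 and 620 against 381 and 260 in sham, without overlap. At 8 h they held 621, 297 and 394 against 77.1 and 311. The 8 h difference was 1.43 ± 0.48 (limma, adjusted p = 0.0724), and it was 2.44 without the sham array holding 311 (adjusted p = 0.0058, limma) and 0.42 without the one holding 77.1 (adjusted p = 0.803, limma). Second probe sets of Rela and Relb stayed below the filter on every array, with highest values of 63.6 and 107.

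Nfkbia, the inhibitor IkB-alpha, was the member called earliest in mouse. Its injury arrays held 2107, 1990 and 2323 at 4 h and 2234, 2524 and 2111 at 8 h. The sham arrays held 1297 and 1509 at 4 h and 873 and 996 at 8 h, so no group overlapped. Nfkbia rose by 0.61 ± 0.13 at 4 h (limma, adjusted p = 0.0268), by 1.29 ± 0.13 at 8 h (adjusted p = 2.72e-06, limma) and by 0.58 ± 0.13 at 24 h (adjusted p = 0.00684, limma). Its level in injured cortex was lower at 24 h (1486, 1525 and 1550) and 72 h (1521, 1452 and 1370) than at 4 and 8 h, with no overlap between the early and late injury arrays. The 24 h call held in 9 of 14 alternative fits, with differences of 0.44 to 0.68 over all of them. Leaving out sham array 1c was among the fits that ended it. At 72 h the difference of 0.29 ± 0.13 was not called (adjusted p = 0.157, limma). The 4 h call comes from a contrast in which injury and the letter in the sample titles coincide (a in injury, b or c in sham).

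The second Nfkbia probe set, 104149_at, differed by 1.05 ± 0.32 at 4 h (limma, adjusted p = 0.21) and rose by 1.61 ± 0.32 at 8 h (adjusted p = 0.00366, limma). Its injury arrays held 1688, 990 and 1547 at 4 h and 1223, 1692 and 1218 at 8 h. All of them exceeded the sham arrays, which held 583 and 752, then 643 and 308. At 24 h it differed by 0.44 ± 0.32 (adjusted p = 0.468, limma). At 8 h both Nfkbia probe sets were therefore called, and at 4 and 24 h only 101554_at was. The 4 h call on 101554_at was lost without any 1 of 4 arrays: sham 1b, sham 1c, injury replicate 1 or injury replicate 3, with adjusted p up to 0.567 (limma).

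Markers of blood cells and of other cell types differed beside the early mouse calls of Nfkbia, Rela and Nfkb2. At 4 h and at 8 h 2 of 3 red blood cell markers rose, with sums of 14766 to 16584 against 8736 to 9191 and of 16969 to 22497 against 10360 to 11022. Of 6 neutrophil markers 1 rose at 4 h and 2 at 8 h, with sums of 3005 to 5051 against 3275 to 3843 and of 3333 to 4221 against 2520 to 2832. The neutrophil sums thus overlapped at 4 h. Of all genes, 0.677% rose at 4 h and 4.91% at 8 h. Oligodendrocyte sums were 18642 to 21080 against 13280 to 15047 at 8 h. Endothelial sums were 2422 to 2495 against 2094 to 2301 at 4 h and 2336 to 2461 against 1887 to 1963 at 8 h. Microglia and macrophage sums at 4 h were 7486 to 7778 against 6876 to 7299. Neuron sums at 4 h were lower, 34260 to 39858 against 40888 to 41306. T and B cell sums at 4 h were lower too, 563 to 612 against 695 to 1032. Astrocyte sums overlapped at both times. The part of these cells in the member values was not tested.

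Tnfaip3 and Tnfaip2, both named for induction by TNF, gave little signal in mouse. The Tnfaip3 probe set held 4.93 to 49.5 over all arrays, mostly under the floor of 24.1 at which values were set. Tnfaip2 held 111 to 216, with 1 array above the filter, and its injury and sham ranges overlapped at 8, 24 and 72 h. At 4 h its injury arrays held 145, 144 and 141 against 145 and 151 in sham. No level of Nfkb1 was analysed here in mouse.

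Read over the 6 tested mouse genes, 1 rose at 4 h where 0.677% of all genes rose, and 4 rose at 8 h where 4.91% did. At 24 h 2 rose (6.19% of all genes) and at 72 h 2 rose (9.86% of all genes). None of the 6 fell at any time, where 0.189%, 3.27%, 4.5% and 5.68% of all genes fell. The 6 genes passed the filter in 16 to 22 of the 22 arrays each. Every injury array was above every sham array for all 6 at 4 h (18% of all genes), for 4 at 8 h (17.8%), for 3 at 24 h (17%) and for 5 at 72 h (20.5%). Their median difference was 0.58, 1.36, 0.53 and 0.69 at 4, 8, 24 and 72 h, beside 0.00, -0.03, -0.04 and -0.01 over all genes tested. At 4 h all injury titles carry the letter a and the sham titles b or c, so injury and title letter cannot be told apart there.

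**Figure D2:**
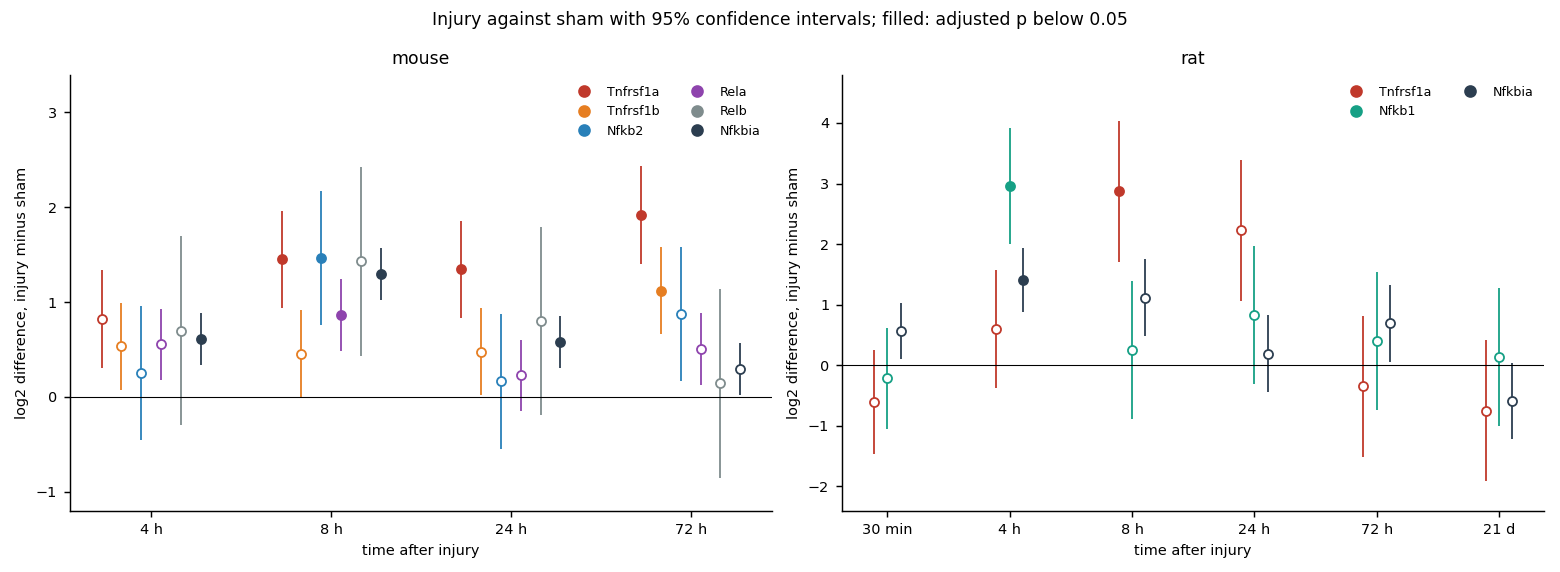
Log2 difference between injury and time-matched sham (y axis) by time (x axis) for the tested genes in mouse (left) and rat (right), with 95% confidence intervals from limma; filled points have an adjusted p below 0.05. In mouse, the difference is largest at 8 h for Nfkbia and at 72 h for Tnfrsf1a, though no change of effect between times was called. In rat, Nfkb1 and Nfkbia are called at 4 h and Tnfrsf1a at 8 h.

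Whether the injury effect itself differed between times was tested directly, and no mouse member was called. Between 4 and 8 h the Nfkbia effect differed by 0.68 ± 0.19 (limma, adjusted p = 0.104) and between 8 and 24 h by -0.71 ± 0.19 (adjusted p = 0.307, limma). The Tnfrsf1a effect at 72 h exceeded that at 4 h by 1.10 ± 0.35 (adjusted p = 0.0764, limma). Of the 6 genes, 2 had an unadjusted limma p below 0.05 for 8 h minus 4 h, 3 for 24 h minus 8 h, 0 for 72 h minus 24 h and 1 for 72 h minus 4 h. The shares of all genes called were 0.614%, 0.0472%, 0.283% and 5.23%. Different peak times for Nfkbia and the receptors are thus a description of their levels.

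Sham surgery alone moved no mouse member past the threshold. Against naive cortex, the mean of the 4 sham groups differed by -0.77 ± 0.29 for Nfkb2 (limma, adjusted p = 0.368) and by 0.14 ± 0.11 for Nfkbia (adjusted p = 0.705, limma). The limma fit called 0 of 6 members, 1 had an unadjusted p below 0.05, and 0.11% of all genes were called.

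In rat, the promoter sequences of the genes that rose together at 4 h are shown because both hold the binding consensus of NF-kB, the kappaB motif. Sequences are from RefSeq (build GRCr8), where 9 of the 10 members had a promoter entry of 300 bases, from 250 before to 50 after a transcription start. Capitals mark the motif, which was searched on both strands; overlapping matches were allowed. The stretches run 5′ to 3′ from 100 bases before to 30 after the start, on the minus strand at chr2:226805433-226805562 for Nfkb1 and at chr6:78597043-78597172 for Nfkbia.
Nfkb1: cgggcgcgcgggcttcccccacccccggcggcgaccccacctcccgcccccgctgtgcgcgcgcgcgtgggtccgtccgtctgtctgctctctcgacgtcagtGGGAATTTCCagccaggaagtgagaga
Nfkbia: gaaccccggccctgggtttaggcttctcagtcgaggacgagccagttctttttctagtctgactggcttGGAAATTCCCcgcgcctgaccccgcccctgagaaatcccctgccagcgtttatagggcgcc

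The match in Nfkb1 began 3 bases after the start, and that in Nfkbia began 31 bases before it and read on the opposite strand. Of the 9 promoters, 4 held a match: Nfkb1, Nfkb2 (20 bases before the start), Nfkbia and Tnfaip3 (3 matches, 170, 67 and 55 bases before it). Of 33469 rat promoters of that length, 7.51% held at least 1. No match lay in the windows of Tnf, Tnfrsf1a, Tnfrsf1b, Rela and Tnfaip2, which says only that these letters are not there.

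Nfkb1, the gene of the p50 subunit and its precursor p105, was highest in injured rat cortex at 4 h. At 4 h its injury arrays held 1568, 1114 and 1943. The sham arrays held 572, 450, 79.3 and 67.8, the lowest of these in the arrays that stood apart (replicates 3 and 4). No injury array overlapped any sham or naive array at that time, and naive rats held 530, 652 and 510. Nfkb1 rose by 2.96 ± 0.47 (limma, adjusted p = 5.47e-04). Without the 4 arrays that stood apart it rose by 1.57 (adjusted p = 0.0109, limma), and against all uninjured rats by 1.85 (adjusted p = 0.0245, limma). Fitted on the compared groups alone it was not called (adjusted p = 0.552, limma). All rat injury titles of 4 h carry the letter b and all sham titles the letter a, and the labels do not explain it. Injury and title letter thus cannot be told apart at 4 h, and no fit with the letter was run in rat.

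At the other times Nfkb1 in injured rat cortex lay mostly within the range of uninjured cortex. Its injury arrays held 293 to 643 at 30 min, 536 to 815 at 8 h, 358 to 613 at 24 h, 518 to 1116 at 72 h and 688 to 864 at 21 d. The matching sham arrays held 422 to 690, 498 to 679, 267 to 305, 541 to 555 and 604 to 776. Groups overlapped at each of these times but 24 h, where all 3 injury arrays were higher by 0.83 ± 0.56 (limma, adjusted p = 1). The Nfkb1 effect was lower at 72 h than at 4 h, with a log2 difference of -2.57 ± 0.73 (limma, adjusted p = 0.0377), and 1.91% of all genes were called lower. That call was lost without the 4 arrays (-1.17, adjusted p = 0.161) and with a replicate block (-2.21, adjusted p = 0.0581), both in limma. It was also lost without any 1 of 9 of the 12 arrays (-3.09 to -2.06, adjusted p up to 0.169, limma).

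In rat at 4 h, where injury and title letter coincide, Nfkbia rose as Nfkb1 did. Its injury arrays held 1389, 1249 and 1182 against 654, 459, 557 and 310 in sham, with no overlap. Nfkbia rose by 1.41 ± 0.26 (limma, adjusted p = 0.00234), and by 1.21 without the 4 arrays (adjusted p = 0.0211, limma); on the compared groups alone it was not called (adjusted p = 0.552, limma). The other Nfkbia probe set, X63594cds_at, held 1915, 1534 and 1635 against 893, 429, 102 and 81.8 and rose by 2.83 ± 0.71 (adjusted p = 0.0276, limma). Its lowest sham values were those of replicates 3 and 4, and without the 4 arrays its difference was 1.45 ± 0.45 and not called (adjusted p = 0.141, limma).

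Already at 30 min, Nfkbia was higher in all 5 injured rats than in all 4 sham rats. The injury arrays ran from 737 to 1152 with a median of 977, and the sham arrays held 618, 642, 728 and 559. The gap was narrow, and the difference of 0.56 ± 0.23 was not called (limma, adjusted p = 1; 0.0245% of all genes were called and 0.367% had all injury arrays higher). On X63594cds_at the difference at 30 min was -0.04, with 79.3 in injury replicate 5, an array that stood apart, and 900 to 1646 in the other 4. Sham arrays on that probe set held 594 to 904, so the groups overlapped. Without the 4 arrays the difference was 0.86 ± 0.38 (adjusted p = 1, limma).

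At 8 h Nfkbia held 881, 843 and 1311 in injured rats against 382 and 548 in sham, without overlap. The difference was 1.12 ± 0.31 (limma, adjusted p = 0.104), and without the 4 arrays Nfkbia was called (adjusted p = 0.0269, limma). It was 0.19, 0.69 and -0.59 at 24 h, 72 h and 21 d, none called. At 72 h all injury arrays (680, 759 and 867) exceeded both sham arrays (441 and 507).

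Nfkbia was also higher in sham than in naive rats. All sham titles carry the letter a and the naive titles b or c, so surgery and title letter cannot be told apart. The naive arrays held 255, 233 and 193, and the 16 sham arrays 310 to 794, so the groups did not overlap. The mean of the sham groups was higher by 1.21 ± 0.22 (limma, adjusted p = 0.0144), and Nfkbia was the single gene called, or 0.0245% of all genes. On X63594cds_at the naive arrays held 423, 412 and 332 and the difference was 0.15 ± 0.59 (adjusted p = 0.963, limma). The call also ended without any 1 of the naive arrays (1.09 to 1.30, adjusted p up to 0.602, limma) and with quantile normalization (adjusted p = 0.229, limma).

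**Figure D3:**
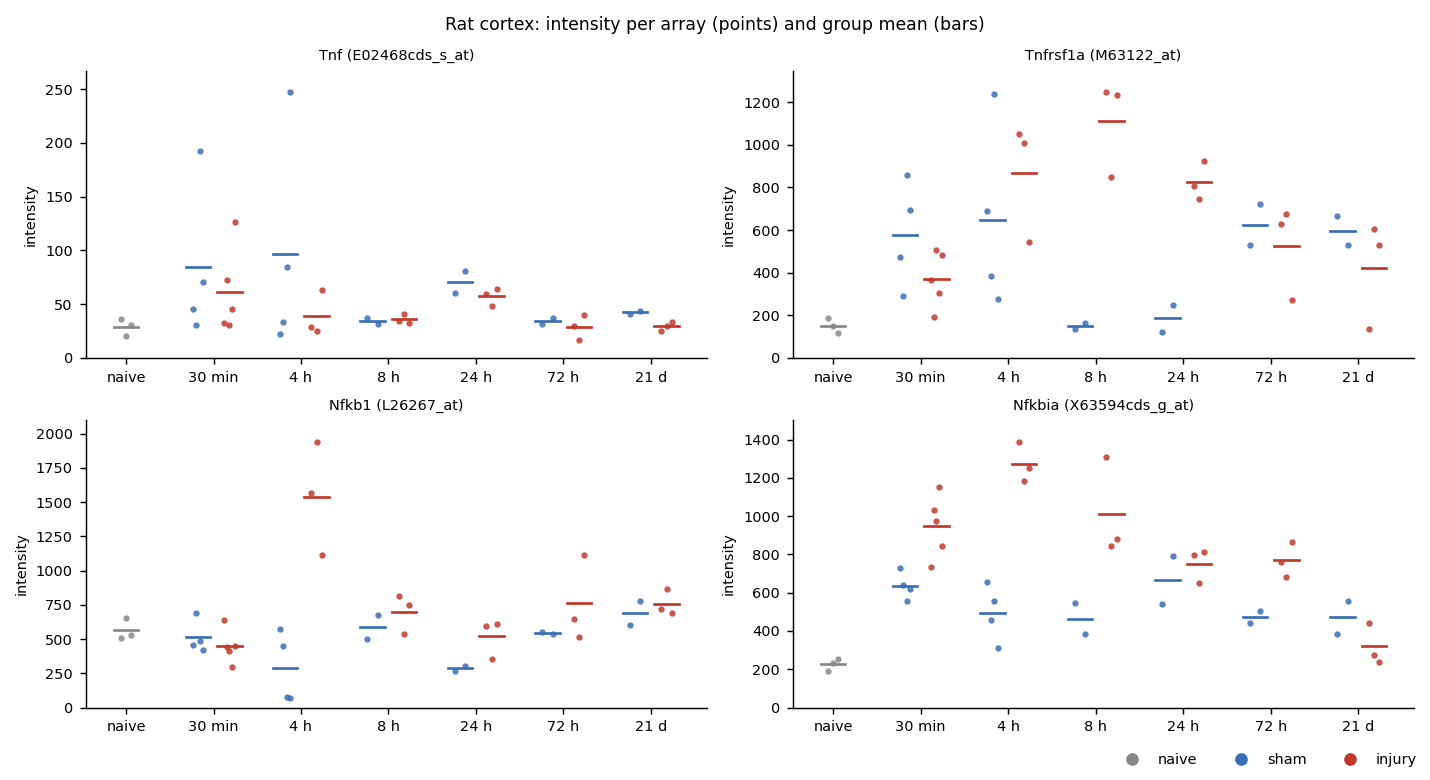
Array intensity (linear scale, y axis from 0) of 4 genes in rat cortex by time after surgery; each point is 1 rat and each bar a group mean, for naive, sham and injury samples. Nfkb1 and Nfkbia are highest in injured cortex at 4 h, Tnfrsf1a sham levels are lowest at 8 and 24 h, and the highest Tnf values are in sham arrays.

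Tnfrsf1a in rat depended on the sham group as much as on the injury group. At 8 h the injury arrays held 1233, 849 and 1248 against 162 and 137 in sham. Tnfrsf1a rose by 2.88 ± 0.57 (limma, adjusted p = 0.00604), a 7.34-fold difference without overlap. Naive rats held 117, 149 and 186, close to sham at 8 h, but sham rats held 288 to 857 at 30 min, 278 to 1238 at 4 h, 529 and 722 at 72 h and 528 and 666 at 21 d. Against all uninjured rats, the 8 h difference was 1.64 (adjusted p = 0.118, limma), and without either sham array at 8 h it was 3.00 or 2.75 (adjusted p = 0.0821 and 0.0924, limma).

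At 24 h Tnfrsf1a held 808, 922 and 746 in injured rats against 123 and 250 in sham. The groups did not overlap, and the difference was 2.23 ± 0.57 (limma, adjusted p = 0.103). It was called without the 4 arrays (adjusted p = 0.0239) and with quantile normalization (2.43, adjusted p = 0.0382), both in limma. At 30 min, 4 h, 72 h and 21 d the injury and sham ranges of Tnfrsf1a overlapped, with differences of -0.61, 0.60, -0.34 and -0.75. The mean of the sham groups was 1.34 ± 0.40 above naive rats (adjusted p = 0.596, limma).

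Markers of blood cells and of other cell types differed in the same rat comparisons. At 4 h, 3 of 4 tested neutrophil markers rose and their summed intensity was 1206 to 2558 in injured against 282 to 859 in sham rats. At 8 h, 3 of 4 rose, with 4044 to 8522 against 255 to 506. Both tested red blood cell markers rose at 4 h, with sums of 16269 to 26225 against 2482 to 10526. Without the 4 arrays, 1 of the 4 neutrophil and 1 of the 2 red blood cell markers rose at 4 h, and the sham sums there were 282 and 441, and 9648 and 10526. At 8 h 1 of the 2 red blood cell markers rose (18627 to 20868 against 5546 to 6499). Of all genes, 2.93% rose at 4 h (0.905% without the 4 arrays) and 0.611% at 8 h. Microglia and macrophage sums were 8399 to 11898 against 6974 to 8152 at 4 h and overlapped at 8 h. At 8 h astrocyte sums were 25300 to 29189 against 20266 to 22059 and oligodendrocyte sums 42073 to 46582 against 31077 to 34544. T and B cell, neuron and endothelial sums overlapped at both times. The part of these cells in the values of Nfkb1, Nfkbia and Tnfrsf1a was not tested.

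Tnf and Tnfrsf1b were too low in rat to be tested. Tnf ran from 16.3 to 247 over the 39 arrays, and its highest values, 247, 192 and 126, lay in arrays that stood apart. In injured rats at 4 h Tnf held 29.0, 63.2 and 24.7, against 21.8 and 33.3 in the sham arrays of that time that did not stand apart. The Tnfrsf1b probe sets held 9.48 to 202 and 13.7 to 111.

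Of the 3 rat genes tested, 2 rose at 4 h (2.93% of all genes rose, or 0.905% without the 4 arrays, where both members also rose) and 1 at 8 h (0.611% of all genes). None was called at 30 min, 24 h (0.269% of all genes called), 72 h (2.76%) or 21 d (0%). At those times an unadjusted limma p below 0.05 was reached by 1, 1, 1 and 0 of the 3. All injury arrays exceeded all sham arrays for 2 genes at 4 h (5.48% of all genes), 2 at 8 h (19.5%), 2 at 24 h (16.4%), 1 at 72 h (19%) and none at 21 d (9.81%). The 3 genes passed the filter in 31 to 38 of the 39 arrays each.

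**Figure D4:**
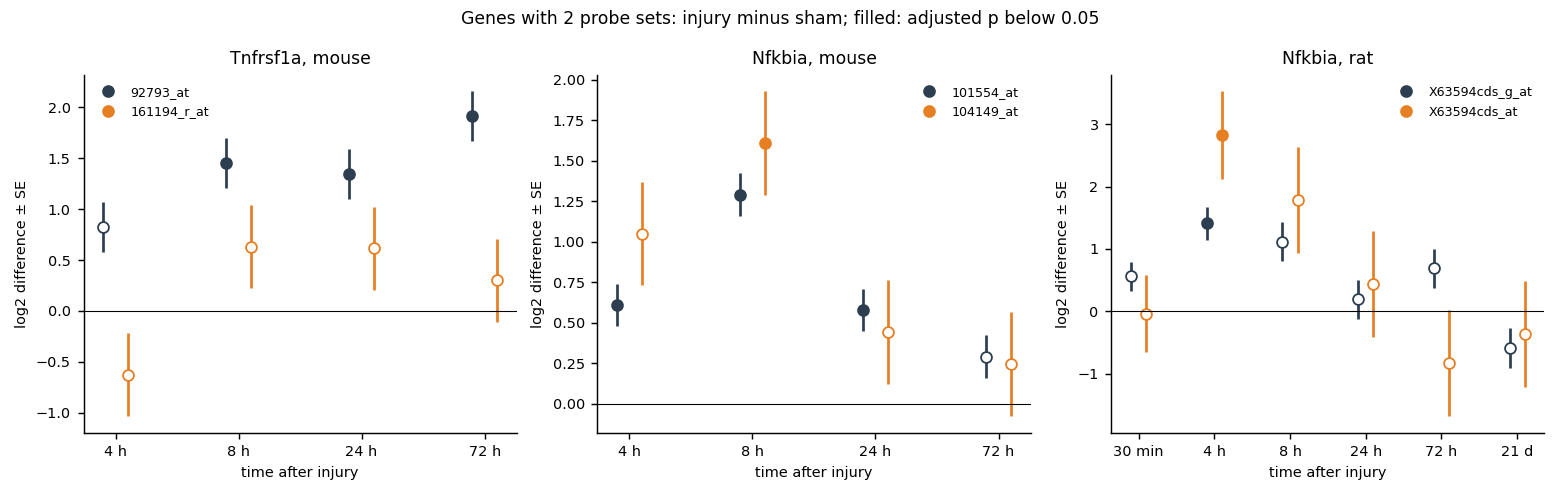
Log2 difference ± SE between injury and sham (y axis) by time (x axis) for the genes with 2 tested probe sets, from limma on every probe set; filled points have an adjusted p below 0.05. The Nfkbia probe sets share a call at 8 h in mouse and, with the 4 arrays that stood apart, at 4 h in rat, while Tnfrsf1a is called from 8 h on with 92793_at and at no time with 161194_r_at.

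The genes whose levels followed each member most closely were found by Pearson correlation over all arrays of the species, as a description, since all share the same arrays and injury groups. In mouse (22 arrays), Nfkbia was nearest to the endotoxin co-receptor gene Cd14 (r = 0.93), the transcription factor gene Cebpb (0.91) and the chemokine gene Ccl3 (0.91). Tnfrsf1a was nearest to Lgals3 (r = 0.94), which encodes galectin 3, then Lilr4b (0.93) and Anxa2 (0.93). Tnfrsf1b was nearest to Pmp22 (0.89), Cnn2 (0.89) and Lrp10 (0.88). Rela was nearest to Mapkapk2 (0.90), Rgs16 (0.85) and Fos (0.85), and Nfkb2 to Rela (0.77), Slc7a5 (0.74) and Net1 (0.71). Relb was nearest to Csnk1d (0.77), Zfp36 (0.72) and Carhsp1 (0.70). In rat (39 arrays), Nfkbia was nearest to Atf3 (0.81), Ccl3 (0.79) and Cebpb (0.78). Rat Nfkb1 was nearest to Sdcbp (0.86), Tra2b (0.84) and C1qbp (0.82), and Tnfrsf1a to Pla1a (0.61), Ifitm3 (0.60) and Timp1 (0.60).

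Around the members, 82 other genes of the pathway were listed in 5 roles, of which 46 were tested in mouse. The lists were chosen with earlier results of these data known, so their counts and medians are a description and no independent support. In mouse 9 rose at 4 h (0.677% of all genes rose), 19 at 8 h (4.91%), 15 at 24 h (6.19%) and 12 at 72 h (9.86%). Of the 46, 1 fell, Birc2 at 72 h (-0.59 ± 0.17, limma, adjusted p = 0.0245), where 5.68% of all genes fell. Most of the calls lay among 21 tested genes known as NF-kB targets, of which 8, 13, 11 and 8 rose at the 4 times. Their median difference was 1.48, 2.29, 1.27 and 0.77, beside 0.00, -0.03, -0.04 and -0.01 over all genes. With the sham arrays of a time averaged, 4, 10, 9 and 4 targets rose, and leaving out single arrays gave 3 to 7, 9 to 12, 6 to 12 and 4 to 8.

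The targets with the smallest adjusted p in mouse were the chemokine genes Ccl2 and Ccl3 and the co-receptor gene Cd14, each called at all 4 times. Ccl2 rose by 5.63 ± 0.38 at 8 h (limma, adjusted p = 1.68e-08), Ccl3 by 4.73 ± 0.34 (adjusted p = 3.27e-08, limma) and Cd14 by 2.72 ± 0.24 (adjusted p = 5.22e-07, limma). The sizes for Ccl2 and Ccl3 depended on the floor. With the floor at the 25th percentile the 3 differences were 4.26, 3.95 and 2.72. Against all uninjured arrays they were 5.08, 3.30 and 2.51, and the calls held in both fits. Like Nfkbia, Ccl3 and Cd14 had their largest difference at 8 h. The Ccl3 effect was lower at 24 h than at 8 h, with a log2 difference of -2.94 ± 0.48 (adjusted p = 0.0341, limma). In that contrast 0.0472% of all genes were called. The Ccl3 call was lost with no filter on low values and on the compared groups alone, where 0 genes were called.

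Among other inhibitors and subunits in mouse, Nfkbiz, an atypical nuclear IkB, rose by 1.37 ± 0.31 at 4 h, by 1.85 ± 0.31 at 8 h and by 1.34 ± 0.31 at 24 h (limma, adjusted p = 0.0374, 7.03e-04 and 0.00757). Bcl3, another nuclear IkB family gene, rose at 8 h by 2.41 ± 0.69 (adjusted p = 0.0361, limma). These were 2 of 4 genes tested in that role. The Nfkbiz calls at 4 h and 24 h did not hold in every fit with a single array left out. The Nfkbiz call at 8 h held whichever of the 5 compared arrays was left out, and the Bcl3 call was lost without any 1 of 4 of them (adjusted p up to 0.177, limma).

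Of 4 other receptors tested in mouse, 3 were called at some time. The lymphotoxin beta receptor gene Ltbr rose at 8, 24 and 72 h, by 1.15 ± 0.24 at the last (limma, adjusted p = 0.00254). The interleukin 1 receptor gene Il1r1 rose by 1.47 ± 0.37 (adjusted p = 0.0111, limma) and the decoy receptor gene Tnfrsf11b by 1.29 ± 0.42 (adjusted p = 0.0407, limma), both at 72 h, the time of the Tnfrsf1b call; Il1r1 was called at 8 h too. With single arrays left out, the Ltbr call at 72 h held in 5 of 5 fits, that of Il1r1 in 3 and that of Tnfrsf11b in 2 (adjusted p up to 0.428, limma).

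Of 15 adaptors and kinases tested, 2 rose at 8 h, 1 at 24 h and 1 at 72 h, beside 4.91%, 6.19% and 9.86% of all genes. Tradd, the TNFR1 adaptor, rose by 1.54 ± 0.40 at 8 h (limma, adjusted p = 0.0209), Myd88, the Toll-like and interleukin 1 receptor adaptor, by 2.17 ± 0.59 at 24 h (adjusted p = 0.0218, limma), and Traf5, a TNF receptor-associated factor, by 1.93 ± 0.55 at 72 h (adjusted p = 0.0216, limma). With single arrays left out these calls were lost in 2, 3 and 4 of 5 fits, with adjusted p up to 0.209, 0.535 and 0.112 (limma). The median of this role at 8 h was -0.01, near that of all genes. Of 2 other ligands tested, Ltb rose at 24 h by 1.72 ± 0.52 (adjusted p = 0.0391, limma), a call lost whichever of the 5 compared arrays was left out (adjusted p 0.059 to 0.191, limma).

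**Figure D5:**
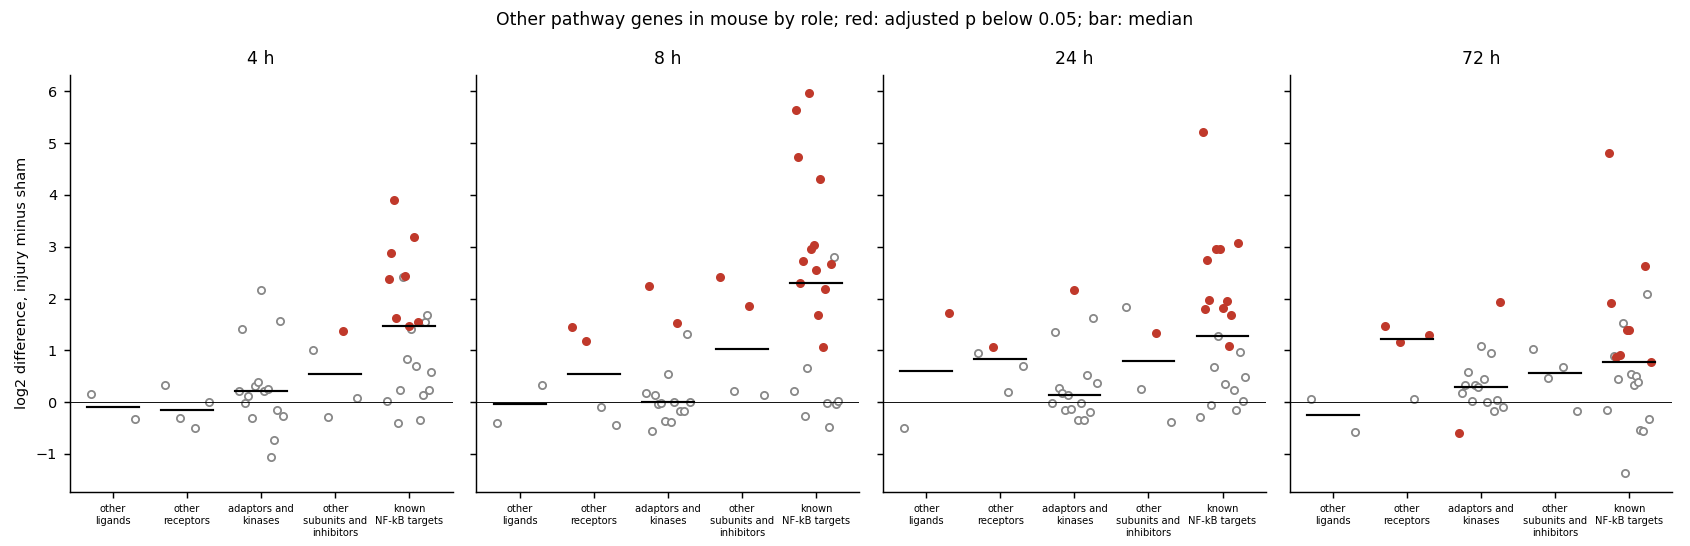
Log2 difference between injury and sham (y axis) at 4 times in mouse for 46 other pathway genes, grouped by role on the x axis; each point is 1 gene, red where the adjusted p is below 0.05, and bars are medians. Known NF-kB targets lie highest at 8 h, with a median of 2.29, while adaptors and kinases centre near 0. The lists were chosen with earlier results of these data known.

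In rat, 31 of the 82 were tested, 25 of them known targets. In the main fit, every call in an injury contrast was a target. At 30 min 1 rose (0.0245% of all genes called), at 4 h 12 (2.93% rose) and at 8 h 5 (0.611% rose). At 24 h 1 rose (0.269% of all genes called), at 72 h 2 (2.76% called) and at 21 d 0 (0% called). Without the 4 arrays that stood apart the target counts were 0, 9, 6, 2, 4 and 0. The shares of all genes that rose were then 0%, 0.905%, 1.44%, 0.758%, 5.33% and 0%. Leaving out single arrays gave 4 to 12 targets at 4 h, 1 to 3 at 8 h and 0 to 3 at 72 h. Of the 4 other receptors tested, 1 rose at 72 h without the 4 arrays that stood apart. With single arrays left out, up to 1 of these receptors fell at 4 h and up to 1 rose at 72 h. Ccl3 rose by 5.69 ± 0.56 at 4 h (limma, adjusted p = 5.74e-08), the iron-binding protein gene Lcn2 by 4.21 ± 0.54 at 24 h (adjusted p = 2.84e-05, limma) and the cytokine gene Il1b by 2.78 ± 0.45 at 4 h (adjusted p = 5.47e-04, limma). Without the 4 arrays, Ccl3 rose by 6.58 (adjusted p = 1.59e-09) and Il1b by 3.44 (adjusted p = 9.31e-07) at 4 h, both in limma. With the floor at the 25th percentile the Ccl3 difference at 4 h was 5.04. Lcn2 is also 1 of the 4 neutrophil markers, whose sum at 24 h was 1968 to 5119 in injured against 355 to 452 in sham rats. The median of the targets was 1.34 at 4 h against -0.12 over all genes (1.17 against 0.01 without the 4 arrays), the time at which Nfkb1 and Nfkbia were called. Fitted on the compared groups alone, 1 target and no member was called at 4 h.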

How the data were processed

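The arrays' deposited values are intensities, 1 for each probe set, on a linear scale; the software that made them is not given in the sources used here. Groups come from the labels. At each time the mouse sham titles carry 1 number with different letters; they were taken as separate samples, and nothing in the labels separates biological from technical spread, so a p-value may reflect technical spread alone. The number of arrays limits the precision.

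Values below the 10th percentile of all values of a species (24.1 in mouse, 32.3 in rat) were raised to it before log2. Without control probe sets (66 and 59), those exceeding the 40th percentile (194 and 203) in 3 or more arrays were kept; the one with the highest mean stood for its gene, named by the platform annotation. One linear model per species was fitted with limma 3.58.1 in R 4.3.3 (trend on, 13 and 26 residual degrees of freedom) and checked on simulated data. Contrasts were injury against time-matched sham, sham groups against naive, and differences between injury effects. The members, gene lists and markers were chosen with earlier results of these data known. All 10 members are named; of the other pathway genes, up to 3 called ones with the smallest adjusted p per role and species, and Birc2, named after its value was seen, are. Alternatives were quantile normalization, no filter, the 25th percentile as floor, averaged probe sets, the compared groups alone, all uninjured arrays as control, title letter or replicate number as a block, averaged mouse sham arrays, 4 rat arrays left out, and single arrays left out. Single probe sets, recounted pathway lists, and second probe sets, lists and named pathway genes under these alternatives were added after seeing the data. Plots used matplotlib 3.10.9 under Python 3.11.15.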

Additional observations from a re-analysis of the deposited data

Results flagged for a closer look

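The Nfkb1 injury effect in rat differed between times: it was lower at 72 h than at 4 h, with a log2 difference of -2.57 ± 0.73 (limma, adjusted p = 0.0377). The 2 low sham arrays at 4 h (79.3 and 67.8) enter this difference, and without the 4 arrays that stood apart it was -1.17 (adjusted p = 0.161). Dixon's test on the probe set standing for each gene, in rat groups of 4 or 5 arrays, singled out no value (9 sets examined). The other Nfkbia probe set in rat was not examined. Because 2 low values that lie together can hide each other from this test, it cannot decide on the 2 low sham arrays.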

How the results depend on the processing

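No called member changed direction under any alternative run. Of 14 called results for single members, 2 were called under every alternative: Nfkbia at 8 h in mouse (1.06 to 1.61) and Tnfrsf1b at 72 h in mouse (0.996 to 1.24). Of the uncalled ones, 14 were called under at least 1 alternative. In mouse, with all uninjured arrays as control, 4 members were called at 4 h, 4 at 72 h, 2 for 72 h minus 24 h and 3 for 72 h minus 4 h. With averaged sham arrays, counts were 0 at 4 h, 2 at 8 h and 1 at 24 h. At 24 h, the mean of probe sets and the compared groups alone each gave 1, and the compared groups alone gave 1 for 72 h minus 4 h. Leaving out single arrays gave 0 to 1 at 4 h, 2 to 4 at 8 h and 1 to 2 at 24 h. In rat, the compared groups alone gave 0 at 4 h; without the 4 arrays that stood apart, 2 were called at 8 h and 1 at 24 h, and quantile normalization gave 1 at 24 h. For sham against naive, quantile normalization, the mean of probe sets and the compared groups alone each gave 0. For 72 h minus 4 h, 2 were called with the mean of probe sets, and 0 with quantile normalization, the compared groups alone, all uninjured rats as control, the replicate block or without the 4 arrays. Leaving out single arrays gave 0 to 1 for rat 8 h, sham against naive and 72 h minus 4 h. The replicate block changed no other member count in rat; deviations of same-numbered injury and sham arrays correlated above 0.1 in 4 of 15 pairs (-0.41 to 0.36), so the numbers were not taken as pairs. Quantile normalization moved the median of all genes by over 0.1 in rat at 4 h (-0.12 to 0.00), 8 h (0.06 to -0.05), 72 h (0.07 to -0.07) and 72 h minus 4 h (0.23 to -0.07). Counts of all genes called that moved by over 1.5 times were as follows. In mouse they were 55 at 4 h, 520 at 8 h, 679 at 24 h, 987 at 72 h and 332 for 72 h minus 4 h. With averaged sham arrays these became 19, 191, 255, 469 and 82, and against all uninjured arrays 443, 781, 1208, 1505 and 1212. The compared groups alone gave 308 at 8 h, 296 at 24 h and 472 at 72 h, and the title letter block 551 at 72 h. The other mouse contrasts had 39 or fewer calls, ranging from 0 to 115 for 8 h minus 4 h (39), 0 to 94 for 24 h minus 8 h (3), 2 to 224 for 72 h minus 24 h (18) and 0 to 7 for sham against naive (7). In rat they were 204 at 4 h, 29 at 8 h, 11 at 24 h, 113 at 72 h and 191 for 72 h minus 4 h. Without the 4 arrays these became 44, 73, 35, 377 and 87. The compared groups alone gave 1 at 4 h, 48 at 8 h, 19 at 72 h and 2 for 72 h minus 4 h. All uninjured rats as control gave 48 at 4 h, 79 at 8 h, 467 at 24 h and 239 at 72 h, quantile normalization 23 at 24 h, 61 at 72 h and 120 for 72 h minus 4 h, and no filter 99 at 4 h. Rat counts ranged from 0 to 3 at 30 min (1) and 0 to 2 for sham against naive (1). The title letter could not be fitted as a block at 4 h or for sham against naive, 8 h minus 4 h and 72 h minus 4 h in mouse. At 4 h and for sham against naive, the compared mouse groups share no title letter. Low signal limits what can be said of Tnf, Tnfaip3 and Tnfaip2, and groups of 2 sham arrays limit every contrast that rests on them. The cause of these changes was not tested.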
